A study of Mus musculus with 7 samples.

Results

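The cell cycle and DNA replication genes described here are a list of 46 gene symbols chosen by name: the subunits of the replicative helicase, the enzymes of the replication fork, the suppliers of deoxynucleotides, the cyclins and their kinases, and genes of mitosis. The list was chosen with earlier results of these data known, so its shares beside those of all genes are descriptions and no independent test. Of the 46 symbols, 45 are among the 12151 genes of the expression table, and Cdc6, a helicase loader, has no row there and was not analysed here. Messenger RNA was measured in hepatocytes isolated from mouse liver, in 4 libraries labelled ALAS1/2-KO and 3 libraries labelled WT. The ALAS1/2-KO mice carried an Alas1 allele whose exons 4 to 5 can be deleted by an inducible Cre, were labelled with tamoxifen, and were given GalNAc-coupled small interfering RNAs against Alas2. ALAS1 and ALAS2 catalyse the entry step of heme synthesis. The WT libraries are labelled with no treatment, so genotype, tamoxifen and small interfering RNA cannot be told apart. The sources used here do not give the promoter that drives Cre, nor the strain, age or sex of the mice. Whether replicates are separate mice is not stated either, so p-values reflect only how these libraries vary, which could be technical.

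Before DNA is copied, the MCM proteins are loaded at replication origins as an inactive ring, and cyclin-dependent kinases then switch the ring on as the helicase that opens the double strand. D-type and E-type cyclins with CDK4, CDK6 and CDK2 inactivate the retinoblastoma protein RB1, which frees E2F factors to transcribe replication genes. Cyclin A2 and the B-type cyclins with CDK1 later drive mitosis, and many of their genes are transcribed late in the cycle through promoter elements named CHR and CCAAT. Adult hepatocytes are mostly out of the cycle and can re-enter it after liver injury. Low levels of these transcripts in a liver preparation can therefore come from few cells that divide, and in bulk RNA fewer cells of a type and less RNA per cell cannot be told apart.

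Library values are given below in reads scaled to library size (CPM), and replicates are listed in the order 1 to 4 for ALAS1/2-KO and 1 to 3 for WT. They are the deposited log2 values taken off the log scale, with the small prior of 0.0676 CPM that these hold subtracted, while fold changes include it. Listed reads ran from 27933939 to 30195635 per ALAS1/2-KO library and from 22916097 to 34048680 per WT library. The library sizes that the CPM imply were 1.069 to 1.184 times the listed reads in ALAS1/2-KO and 0.801 to 1.003 times in WT. This scaling thus differed between groups, and 1 read was worth 0.0293 to 0.0522 CPM. Each measured member had at least 23 reads in every library. Alas2 stood at 0.333, 0.800, 0.428 and 0.198 CPM in the ALAS1/2-KO libraries, against 16.9, 10.3 and 6.65 CPM in the WT libraries, and fell (log2 fold change -4.51, SE 0.46, limma adjusted p = 0.00270). Alas1, counted over the whole gene, had 287, 332, 307 and 361 CPM in ALAS1/2-KO, against 279.5, 265 and 83.5 CPM in WT (log2 fold change 0.80, SE 0.41, limma adjusted p = 0.277), a value that does not check the loss of 2 exons. The 16 hepatocyte markers were all present, and 11 of them had a log2 fold change above 0, with a median of 0.19. Alb, serum albumin, was the 1 of them that changed, and fell to 49928 to 55979 CPM in ALAS1/2-KO libraries, against 93954 to 100209 CPM in WT libraries (log2 fold change -0.87, limma adjusted p = 0.00606). The other 15 summed to 40168 to 44152 CPM in ALAS1/2-KO and 36095 to 41312 CPM in WT. Mitochondrially encoded genes took 16.8% to 27.3% of listed reads in ALAS1/2-KO and 31.9% to 43.2% in WT.

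Libraries differed in RNA of other liver cells. The 12 macrophage markers summed to 268, 806, 1709 and 1563 CPM in ALAS1/2-KO replicates 1 to 4, against 1224, 1083 and 1468 CPM in the WT libraries. Endothelial markers, also 12, summed to 110.5, 262, 511 and 389.7 CPM in ALAS1/2-KO, against 554, 482 and 594 CPM in WT. The 11 stellate cell markers in the table summed to 60.4, 127, 309.9 and 214 CPM in ALAS1/2-KO, against 496, 265 and 444 CPM in WT. ALAS1/2-KO replicate 1 was thus the lowest of the 7 libraries for all 3 lists, replicate 2 the next lowest, and replicates 3 and 4 lay above every WT library for macrophage markers. The 7 lymphocyte markers in the table summed to 42.9 to 289 CPM in ALAS1/2-KO and 136 to 175 CPM in WT. The 3 biliary markers in the table summed to 12.2 to 19.8 CPM in ALAS1/2-KO and 24.4 to 33.0 CPM in WT, and the defining biliary keratins Krt7 and Krt19 have no row. The 6 erythroid markers in the table summed to 5.02, 8.37, 4.80 and 9.37 CPM in ALAS1/2-KO, against 24.6, 44.3 and 13.9 CPM in WT, so the groups did not overlap, and their median log2 fold change was -2.11. One gene passed the test in each of these last 3 lists: the B cell receptor component Cd79a (log2 fold change -2.18, limma adjusted p = 0.0335), Spp1, which encodes osteopontin (-2.73, 0.00760), and the hemoglobin gene Hbb-bt (-2.46, 0.0483), whose reads may be shared with near-identical hemoglobin genes. The lymphocyte, biliary and erythroid lists are not in the covariate used below. The part that other cells had in the values below was not tested. The leading counts are also given without ALAS1/2-KO replicates 1 and 2 or with the mean level of macrophage, endothelial and stellate markers as a covariate.

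Most cell cycle genes had a lower mean in ALAS1/2-KO hepatocytes, and a single one, Mcm2, passed the test. All 45 members in the table passed the filter on low values, and 39 had a log2 fold change below 0 (86.7%, against 52.0% of the 12105 genes tested), and their median was -0.39, against -0.02 for all genes. Mcm2 was the 1 member called at an adjusted p under 0.05 (2.22% of members, against a background of 5.10% of all genes, or 2.19% in the lower direction), so by this rule the members were called no more often than other genes. In 19 members all 4 ALAS1/2-KO libraries lay below all 3 WT libraries (42.2%, against 11.4% of all genes), and in Ccnd1 alone they lay above (2.22%, against 11.3%). Without the adjustment, 19 members had a p under 0.05 in the lower direction and 1 in the higher (42.2% and 2.22%, against 11.9% and 11.8% of all genes, or 23.7% in either direction).

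The count of lower members at this unadjusted threshold was smaller without the libraries low in other cells and with the marker covariate. Without ALAS1/2-KO replicates 1 and 2, 13 members had an unadjusted p under 0.05 in the lower direction and 3 in the higher (28.9% and 6.67%, against 12.8% and 12.9% of all genes), and the median was -0.24. Other counts were not smaller there: 2 members were called lower and 1 higher (6.67% together, against 9.27% of all genes). With those libraries left out, 20 members lay below every WT library (44.4%, against 21.8% of all genes), and fewer libraries make such separation easier. With the marker covariate, 12 members had an unadjusted p under 0.05 in the lower direction (26.7%, against 11.0% of all genes) and 2 in the higher (4.44%, against 13.0%). In that fit 1 member, Ccnd2, was called (2.22%, against 7.32% of all genes), and Mcm2 was not (limma adjusted p = 0.0705). The sign of the smaller differences depended on the library scaling. When CPM were rescaled to listed reads the median of all genes moved to 0.32 and that of the members to -0.06, which is -0.38 relative to all genes.

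**Figure D1:**
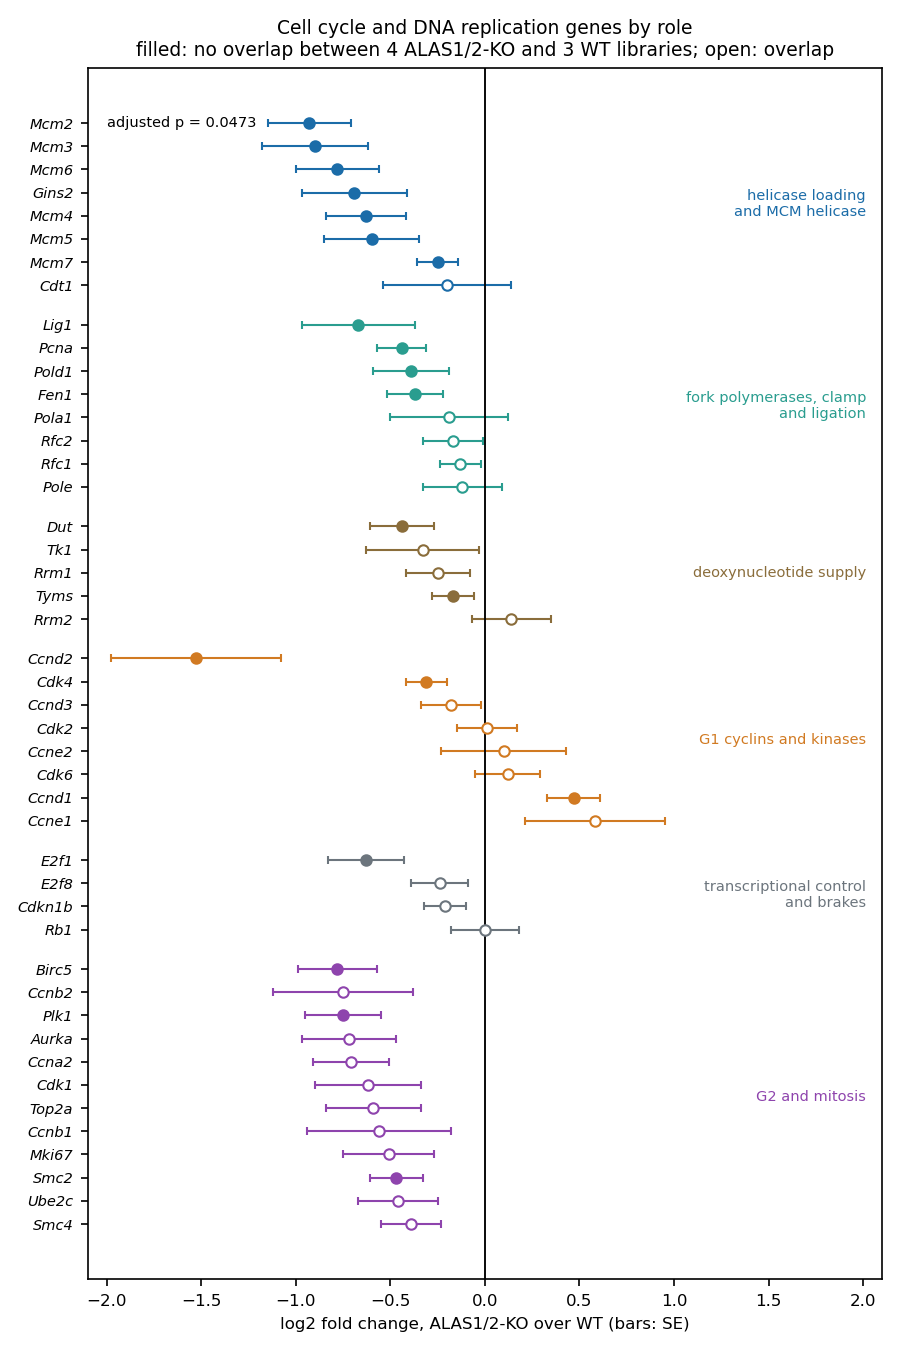
Log2 fold change of ALAS1/2-KO over WT (x axis) for the 45 measured genes, grouped by role, with bars of 1 SE; filled points have no overlap between the 4 ALAS1/2-KO and 3 WT libraries. Helicase and mitotic genes lie left of 0, down to -0.93 for Mcm2, while the G1 group holds both the lowest value, -1.53 for Ccnd2, and the highest, 0.58 for Ccne1.

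The 6 subunits of the MCM helicase all separated the groups, with every ALAS1/2-KO library below every WT library, as was so for 11.4% of all genes. Mcm2 (ENSMUSG00000002870.8, mm10 chromosome 6, 88883474 to 88898780, minus strand) had 2.60, 4.00, 3.67 and 2.70 CPM in ALAS1/2-KO, against 5.01, 6.59 and 6.94 CPM in WT. It fell to 3.24 ± 0.697 CPM in ALAS1/2-KO (SD, n = 4), against 6.18 ± 1.03 CPM in WT (SD, n = 3), with a log2 fold change of -0.93 (SE 0.22, limma adjusted p = 0.0473, exact permutation p = 0.0286, the smallest that 35 regroupings allow). Not every separated gene reached that value: of the other subunits Mcm6 did, while Mcm3, Mcm4, Mcm5 and Mcm7 had an exact permutation p of 0.0571. The call was narrow: it was lost in all 7 fits that left out 1 library, with adjusted p of 0.0522 to 0.205 and log2 fold changes of -1.07 to -0.83. In ALAS1/2-KO replicate 3, with 3.67 CPM of Mcm2, the sums of endothelial markers (511 CPM) and stellate markers (309.9 CPM) lay within the WT range, that of macrophage markers (1709 CPM) above it, and those of biliary (13.0 CPM) and erythroid markers (4.80 CPM) below it.

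Mcm3 had 3.21, 6.62, 7.15 and 5.05 CPM in ALAS1/2-KO, against 8.04, 10.6 and 11.3 CPM in WT (log2 fold change -0.90, SE 0.28, limma adjusted p = 0.106). Mcm6 had 4.11, 5.94, 5.96 and 3.89 CPM in ALAS1/2-KO, against 6.94, 10.7 and 8.11 CPM in WT (log2 fold change -0.78, SE 0.22, limma adjusted p = 0.0838). Mcm4 had 3.63, 4.89, 5.07 and 3.36 CPM in ALAS1/2-KO, against 5.48, 6.39 and 7.79 CPM in WT. In these subunits ALAS1/2-KO replicates 1 and 4 were the lowest libraries, and replicates 2 and 3 lay between them and WT. Mcm5 had 3.57, 6.46, 7.03 and 6.20 CPM in ALAS1/2-KO, against 8.87, 7.10 and 10.1 CPM in WT, so replicate 3 came close to WT replicate 2. Mcm7, the most abundant subunit per length of exon, had 9.89, 11.7, 12.6 and 12.3 CPM in ALAS1/2-KO, against 14.1, 13.5 and 13.8 CPM in WT, a log2 fold change of only -0.25 (SE 0.11, limma adjusted p = 0.221). Relative to exon length, Mcm7 averaged 2.62 CPM per kb in ALAS1/2-KO and 3.11 in WT, while Mcm2 averaged 0.466 CPM per kb in ALAS1/2-KO and 0.888 in WT.

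The estimates for the subunits of one ring ran from -0.93 to -0.25 on the log2 scale, and differences between subunits were not tested. Mcm7 alone of the 6 changed sign with CPM rescaled to listed reads (0.08, against 0.32 for the median gene). Gins2, part of the GINS complex that joins the ring to form the active helicase, had 0.786, 0.985, 1.25 and 1.32 CPM in ALAS1/2-KO, against 1.62, 1.71 and 1.99 CPM in WT (log2 fold change -0.69, SE 0.28, limma adjusted p = 0.183). Of its annotated exon bases 67.3% also belong to Gse1, so its reads may in part be those of that gene. Cdt1, which loads the ring onto DNA, overlapped between groups at 3.03 ± 1.13 CPM in ALAS1/2-KO (SD, n = 4) and 3.29 ± 0.489 CPM in WT (SD, n = 3). In this group as a whole 7 of 8 genes lay below every WT library (87.5%, against 11.4% of all genes), and the median log2 fold change was -0.66. At an unadjusted p under 0.05, 6 of 8 were lower (75.0%, against 11.9% of all genes). Without ALAS1/2-KO replicates 1 and 2 that count was 4 of 8 (50%, against 12.8%), with a median of -0.54.

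Promoters of 35 of the 45 members were in the RefSeq table used (build GRCm38.p6), as 40 windows of 300 bases that run from 250 before to 50 after a start site. They were searched on both strands for the E2F motif as TTTCCCGC, TTTCGCGC, TTTGCCGC or TTTGGCGC, for the CHR motif TTTGAA and for CCAAT, where E2F matches may overlap each other. The first 250 bases, up to the start site, are shown for a pair of helicase genes, Mcm2 and Mcm6, and a pair of mitotic genes, Cdk1 and Ccnb2, because the 2 groups differed in both motifs and pattern across libraries. Each is read 5′ to 3′ on the minus strand, at chr6:88898781-88899030 for Mcm2, chr1:128359706-128359955 for Mcm6, chr10:69352913-69353162 for Cdk1 and chr9:70421555-70421804 for Ccnb2, with motif matches in capitals.
Mcm2: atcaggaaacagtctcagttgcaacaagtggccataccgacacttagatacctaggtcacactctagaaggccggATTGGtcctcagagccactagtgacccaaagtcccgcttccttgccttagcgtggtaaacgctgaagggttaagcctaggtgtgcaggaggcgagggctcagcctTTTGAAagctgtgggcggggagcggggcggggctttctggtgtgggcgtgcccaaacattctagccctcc
Mcm6: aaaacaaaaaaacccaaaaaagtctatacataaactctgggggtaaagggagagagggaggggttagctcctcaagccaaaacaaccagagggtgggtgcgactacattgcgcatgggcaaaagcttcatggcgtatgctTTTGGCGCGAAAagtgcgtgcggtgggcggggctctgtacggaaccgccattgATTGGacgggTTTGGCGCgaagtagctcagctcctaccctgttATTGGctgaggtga
Cdk1: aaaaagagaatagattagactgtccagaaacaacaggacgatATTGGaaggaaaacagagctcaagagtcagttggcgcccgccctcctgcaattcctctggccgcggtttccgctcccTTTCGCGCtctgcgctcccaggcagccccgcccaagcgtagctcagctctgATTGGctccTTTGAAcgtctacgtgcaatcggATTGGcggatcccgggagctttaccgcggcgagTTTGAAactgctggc
Ccnb2: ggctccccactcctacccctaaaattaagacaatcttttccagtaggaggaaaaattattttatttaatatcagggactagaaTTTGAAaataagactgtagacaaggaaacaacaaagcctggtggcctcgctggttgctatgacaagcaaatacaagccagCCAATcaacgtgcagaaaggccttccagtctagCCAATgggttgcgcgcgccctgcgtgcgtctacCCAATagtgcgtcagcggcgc

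In the Mcm6 window the run TTTGGCGCGAAA holds 2 overlapping E2F matches on opposite strands, the first starting 110 bases before the start site, and a further match starts 47 bases before it. Mcm2 had 1 CHR match and 1 CCAAT match in its window and none of the E2F spellings. Cdk1 had 1 E2F match, 2 CHR matches and 3 CCAAT matches, and Ccnb2 had 3 CCAAT matches at 87, 54 and 21 bases before the start and 2 CHR matches, of which 1 lies past the start and is not shown. Across the helicase group 5 of 7 promoters held an E2F match (71.4%) and 1 of 7 a CHR match (14.3%). In the G2 and mitosis group the shares were the other way round, with an E2F match in 1 of 10 promoters (10%) and a CHR match in 8 of 10 (80.0%). Mcm2 alone of the helicase genes searched had no E2F match, and it alone had a CHR match. Cdk1 alone of the mitotic genes searched had an E2F match, so both windows shown are exceptions in their groups. CCAAT was found in 6 of 7 helicase promoters (85.7%) and 9 of 10 mitotic ones (90.0%). Among the 12075 promoters of tested genes 3.85% held E2F, 12.5% CHR and 37.7% CCAAT, and among all 32851 promoters of the table the shares were 2.26%, 17.9% and 37.4%. Matches are descriptions of these letters in these windows, and no binding was measured.

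**Figure D2:**
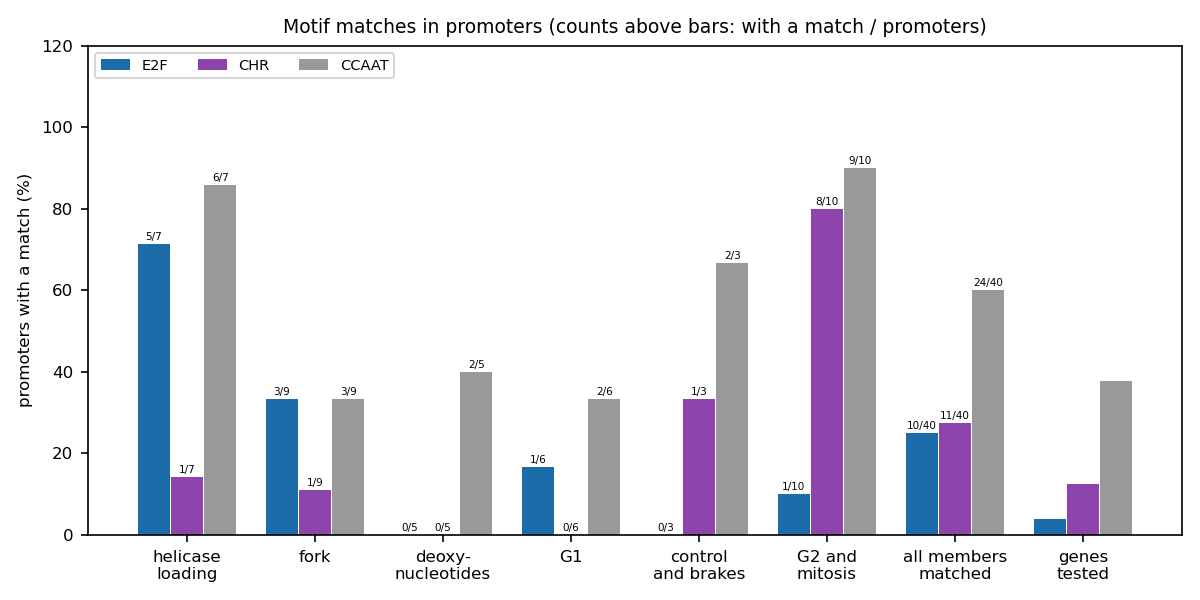
Share of promoter windows with at least 1 match (y axis, percent) for 3 motifs in each role, in all members matched and in genes tested; numbers above bars are promoters with a match over promoters searched. E2F matches stand highest in the helicase group (5 of 7) and CHR matches in the G2 and mitosis group (8 of 10).

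At the replication fork all 8 genes had a log2 fold change below 0, with a median of -0.28, and none passed the test. Pcna, the sliding clamp that holds polymerases on DNA, had 14.0, 18.6, 19.3 and 16.8 CPM in ALAS1/2-KO, against 21.7, 26.1 and 22 CPM in WT (log2 fold change -0.44, SE 0.13, limma adjusted p = 0.102). Lig1, the ligase that seals lagging-strand fragments, had 2.72, 4.92, 7.03 and 6.37 CPM in ALAS1/2-KO, against 7.72, 7.46 and 8.58 CPM in WT (log2 fold change -0.67, SE 0.30, limma adjusted p = 0.226). The groups did not overlap for either gene, but Lig1 in ALAS1/2-KO replicate 1 was far below the other 3 libraries of its group, and leaving it out gave a log2 fold change of -0.38. Fen1, the flap nuclease, had 3.63, 4.40, 4.58 and 4.65 CPM in ALAS1/2-KO, against 5.58, 5.56 and 5.62 CPM in WT, with 78.8% of its exon bases shared with the antisense gene Gm10143. Pold1, the catalytic subunit of polymerase delta, had 2.84, 4.00, 4.83 and 4.55 CPM in ALAS1/2-KO, against 5.06, 5.16 and 5.45 CPM in WT. The remaining 4 overlapped between groups.

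These 4 fork genes had log2 fold changes of -0.19 to -0.12, and of -0.09 to 0.07 without ALAS1/2-KO replicate 1. Pola1, of the polymerase alpha-primase complex, averaged 3.23 ± 1.09 CPM in ALAS1/2-KO and 3.56 ± 0.725 CPM in WT (SD, n = 4 and 3). Pole, of polymerase epsilon, averaged 3.52 ± 0.582 CPM in ALAS1/2-KO and 3.81 ± 0.622 CPM in WT. The clamp loader subunits Rfc1 and Rfc2 averaged 13.3 ± 1.35 and 11.1 ± 1.83 CPM in ALAS1/2-KO, and 14.5 ± 0.823 and 12.5 ± 1.68 CPM in WT. ALAS1/2-KO replicate 1 was the lowest of the 7 libraries for all 8 fork genes, while it was the lowest for 24.1% of all genes. Without it the median log2 fold change of the group was -0.16, and with the marker covariate it was -0.10. Rescaling CPM to listed reads gave 0.05, or -0.27 relative to the median of all genes.

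Genes of deoxynucleotide supply showed small differences, and none of the 5 passed the test. Dut, which removes dUTP so that uracil stays out of DNA, had 4.32, 6.0, 4.98 and 4.25 CPM in ALAS1/2-KO, against 7.25, 6.35 and 6.18 CPM in WT (log2 fold change -0.44, SE 0.17, limma adjusted p = 0.162). Tyms, thymidylate synthase, had 7.08, 7.60, 7.55 and 7.95 CPM in ALAS1/2-KO, against 8.46, 8.77 and 8.29 CPM in WT. Both kept the groups apart, yet the Tyms difference was small, at -0.17 on the log2 scale, and its sign turned with CPM rescaled to listed reads (0.16). Tk1, the thymidine kinase of dividing cells, had 9.86, 20.8, 22.7 and 19.0 CPM in ALAS1/2-KO, against 27.5, 20 and 18.4 CPM in WT. Only ALAS1/2-KO replicate 1 lay below the WT range for Tk1, and without it the log2 fold change was -0.06.

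Ribonucleotide reductase, which makes deoxynucleotides from ribonucleotides, has the subunits Rrm1 and Rrm2. Rrm1 averaged 11.1 ± 1.55 CPM in ALAS1/2-KO (SD, n = 4) and 13.3 ± 2.70 CPM in WT (SD, n = 3). Rrm2, the subunit whose level usually follows S phase, averaged 13.2 ± 3.45 CPM in ALAS1/2-KO and 11.7 ± 1.78 CPM in WT, and its log2 fold change of 0.14 (SE 0.21, limma adjusted p = 0.719) was the 1 value of this group above 0. For both subunits the difference was within the spread between libraries.

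The G1 cyclins and kinases diverged, with D-type cyclins on both sides of 0. Ccnd1, cyclin D1, had 62.6, 80.1, 80.5 and 66.2 CPM in ALAS1/2-KO, against 43.6, 57.3 and 55.7 CPM in WT, and was the 1 member higher in every ALAS1/2-KO library. Its log2 fold change was 0.47 (SE 0.14, limma adjusted p = 0.0963), so it did not pass the test, and over 18 alternatives its adjusted p ran from 0.0113 to 0.259. Ccnd2, cyclin D2, had 1.39, 4.00, 6.11 and 4.45 CPM in ALAS1/2-KO, against 11.2, 8.81 and 11.0 CPM in WT, a log2 fold change of -1.53 (SE 0.45, limma adjusted p = 0.103). Ccnd2 was the gene with the largest difference among the members, and ALAS1/2-KO replicate 1 set its spread: without that library the adjusted p was 0.0148 at a log2 fold change of -1.10. With the marker covariate the log2 fold change was -0.74 (adjusted p = 0.0362), and over 18 alternatives the adjusted p ran from 0.0131 to 0.249.

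Across the ALAS1/2-KO libraries Ccnd2 had the same order as the mean of macrophage, endothelial and stellate markers, with both lowest in replicate 1 and highest in replicate 3, and the part of other cells in its difference was not tested. Ccnd3, cyclin D3, overlapped at 17.5 ± 2.81 CPM in ALAS1/2-KO (SD, n = 4) and 19.8 ± 2.92 CPM in WT (SD, n = 3). Per length of exon, Ccnd1 was the most abundant of all members at 15.4 CPM per kb in ALAS1/2-KO and 11.1 in WT, while Ccnd3 had 1.99 in ALAS1/2-KO and 2.26 in WT, and Ccnd2 had 0.424 in ALAS1/2-KO and 1.10 in WT. Of Ccnd1 exon bases 23.4% also lie in the gene annotated as LTO1 on the other strand, and the kit does not mark strand.

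Among the kinases, Cdk4, the partner of D-type cyclins, had 17.4, 20.3, 17.1 and 16.3 CPM in ALAS1/2-KO, against 23.5, 20.3 and 22.3 CPM in WT. The groups touched without overlapping, since ALAS1/2-KO replicate 2 and WT replicate 2 both rounded to 20.3 CPM (log2 fold change -0.31, SE 0.11, limma adjusted p = 0.135). Cdk6 averaged 16.5 ± 3.43 CPM in ALAS1/2-KO and 15.0 ± 1.54 CPM in WT, and Cdk2 averaged 10.2 ± 1.45 CPM in ALAS1/2-KO and 10.1 ± 1.54 CPM in WT (SD, n = 4 and 3). Ccne1, cyclin E1, was listed at 1.27, 1.32, 2.72 and 2.70 CPM in ALAS1/2-KO, against 1.36, 0.913 and 1.52 CPM in WT, so replicates 3 and 4 lay above WT and replicates 1 and 2 within it. Its log2 fold change was 0.58 (SE 0.37, limma adjusted p = 0.382). Ccne2 averaged 1.76 ± 0.586 CPM in ALAS1/2-KO and 1.62 ± 0.458 CPM in WT, and both E-type cyclins rested on as few as 23 reads in a library.

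**Figure D3:**
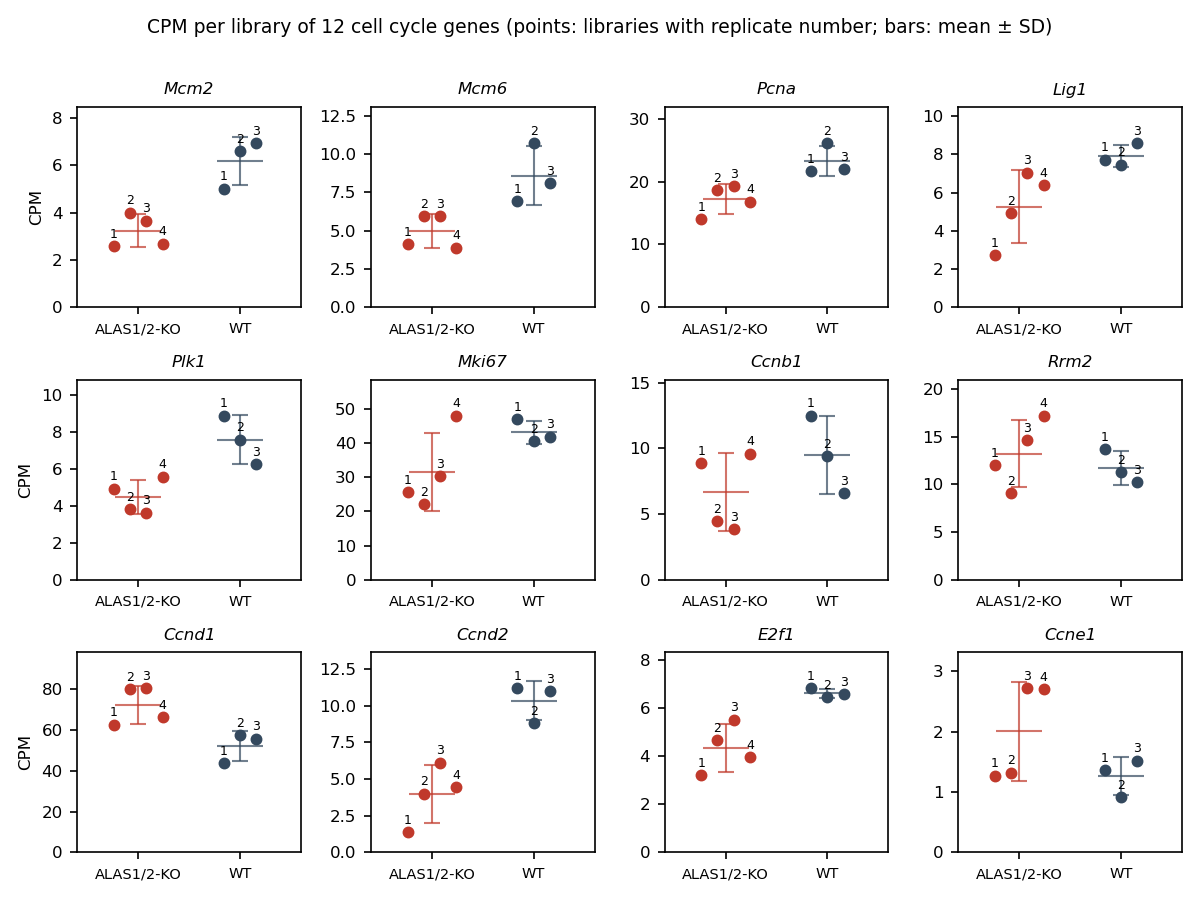
CPM in each library (points, numbered by replicate) with mean and SD, for 12 genes chosen to show the main patterns, ALAS1/2-KO left and WT right in each panel. Mcm2, Mcm6, Pcna, Lig1, Plk1, Ccnd2 and E2f1 have all 4 ALAS1/2-KO points below the WT points, Ccnd1 has them above (62.6 to 80.5 against 43.6 to 57.3 CPM), and Mki67, Ccnb1, Rrm2 and Ccne1 overlap.

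Of the transcriptional regulators, E2f1, an activator of replication genes, had 3.21, 4.68, 5.53 and 3.96 CPM in ALAS1/2-KO, against 6.84, 6.47 and 6.59 CPM in WT. Its log2 fold change was -0.63 (SE 0.20, limma adjusted p = 0.107), and the lowest values were again in ALAS1/2-KO replicates 1 and 4. E2f8, a repressor of E2F targets known to promote hepatocyte polyploidy, averaged 8.53 ± 1.03 CPM in ALAS1/2-KO and 10.1 ± 1.64 CPM in WT (SD, n = 4 and 3). Rb1, which holds E2F factors back, averaged 7.32 ± 0.636 CPM in ALAS1/2-KO and 7.47 ± 1.87 CPM in WT. Cdkn1b, which encodes the kinase inhibitor p27, had 14.7, 14.1, 13.3 and 16.6 CPM in ALAS1/2-KO, against 15.7, 17.5 and 17.7 CPM in WT. The groups overlapped there through ALAS1/2-KO replicate 4 (log2 fold change -0.21, SE 0.11, limma adjusted p = 0.276).

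The 12 genes of G2 and mitosis all had a log2 fold change below 0, from -0.78 to -0.39 with a median of -0.61, but in 9 of them the groups overlapped. Without ALAS1/2-KO replicates 1 and 2 the median was -0.51, and with the marker covariate it was -0.65. Plk1, the polo kinase of mitotic entry, had 4.93, 3.82, 3.64 and 5.57 CPM in ALAS1/2-KO, against 8.87, 7.58 and 6.24 CPM in WT (log2 fold change -0.75, SE 0.20, limma adjusted p = 0.0733). Birc5, survivin of the chromosomal passenger complex, had 6.14, 4.89, 6.72 and 9.10 CPM in ALAS1/2-KO, against 13.4, 11.3 and 9.52 CPM in WT (log2 fold change -0.78, SE 0.21, limma adjusted p = 0.0796). Smc2, a condensin ATPase that compacts chromosomes, had 4.51, 4.25, 5.20 and 5.34 CPM in ALAS1/2-KO, against 6.32, 6.75 and 7.0 CPM in WT (log2 fold change -0.47, SE 0.14, limma adjusted p = 0.101). In these 3 of 12 genes the groups did not overlap (25.0%, against 11.4% of all genes). In Plk1 and Birc5, WT replicate 3 was the lowest WT library and ALAS1/2-KO replicate 4 the highest ALAS1/2-KO library.

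Mki67, the Ki-67 proliferation antigen, had 25.6, 22.2, 30.4 and 48.0 CPM in ALAS1/2-KO, against 46.9, 40.6 and 41.9 CPM in WT. ALAS1/2-KO replicate 4 was thus the highest of the 7 libraries for Mki67, and the other 3 lay below WT (log2 fold change -0.51, SE 0.24, limma adjusted p = 0.241). Leaving it out gave a log2 fold change of -0.74 (adjusted p = 0.0499), and over 18 alternatives the adjusted p ran from 0.0499 to 0.589. Ccna2, cyclin A2, also overlapped, through ALAS1/2-KO replicate 4, and averaged 9.72 ± 2.53 CPM in ALAS1/2-KO and 15.7 ± 2.20 CPM in WT (SD, n = 4 and 3, log2 fold change -0.71, SE 0.20, limma adjusted p = 0.0838). Leaving out replicate 4 gave an adjusted p of 0.0489, against 0.0258 to 0.287 over 18 alternatives. Top2a, the topoisomerase that untangles chromosomes, averaged 13.2 ± 4.54 CPM in ALAS1/2-KO and 19.1 ± 1.37 CPM in WT.

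The mitotic kinase Cdk1 and its B-type cyclins varied widely among WT libraries. Cdk1 averaged 8.49 ± 2.91 CPM in ALAS1/2-KO and 12.9 ± 3.76 CPM in WT (SD, n = 4 and 3). Ccnb1 averaged 6.70 ± 2.96 CPM in ALAS1/2-KO and 9.49 ± 2.94 CPM in WT, and Ccnb2 averaged 6.84 ± 2.28 CPM in ALAS1/2-KO and 11.9 ± 4.85 CPM in WT. WT replicate 3 was the lowest WT library for each of these 3 genes. Aurka, a spindle kinase, averaged 4.17 ± 1.15 CPM in ALAS1/2-KO and 6.78 ± 1.26 CPM in WT. Ube2c, which serves the anaphase-promoting complex, averaged 6.20 ± 1.56 CPM in ALAS1/2-KO and 8.41 ± 1.07 CPM in WT, with 22.8% of its exon bases shared with Tnnc2. Smc4, the partner of SMC2 in condensin, averaged 18.1 ± 4.24 CPM in ALAS1/2-KO and 23.4 ± 0.338 CPM in WT, and its highest value was again in ALAS1/2-KO replicate 4.

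The ALAS1/2-KO libraries differed among themselves in which stage of the cycle was lowest. The median log2 difference of the helicase genes from the WT mean was -1.12, -0.46, -0.41 and -0.70 in ALAS1/2-KO replicates 1 to 4, against -0.18, -0.02 and 0.17 in WT replicates 1 to 3. For the G2 and mitosis genes it was -0.58, -0.97, -0.77 and -0.16 in ALAS1/2-KO, against 0.12, 0.02 and -0.25 in WT. Replicate 4 was therefore next to lowest for helicase genes and closest to WT for mitotic genes, within the WT range. It was the highest ALAS1/2-KO library for 12 of 12 mitotic genes. It lay below every WT library for 3 of the 12, no larger a share than the 32.3% of all genes. ALAS1/2-KO replicates 2 and 3 lay below every WT library for 12 of 12, against 32.5% and 29.3% of all genes. For the G1 group the median was -0.28, -0.08, 0.13 and -0.01 in ALAS1/2-KO, against -0.04, 0.02 and 0.10 in WT, with no separation. The median of all genes was -0.01 to 0.01 in every library.

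**Figure D4:**
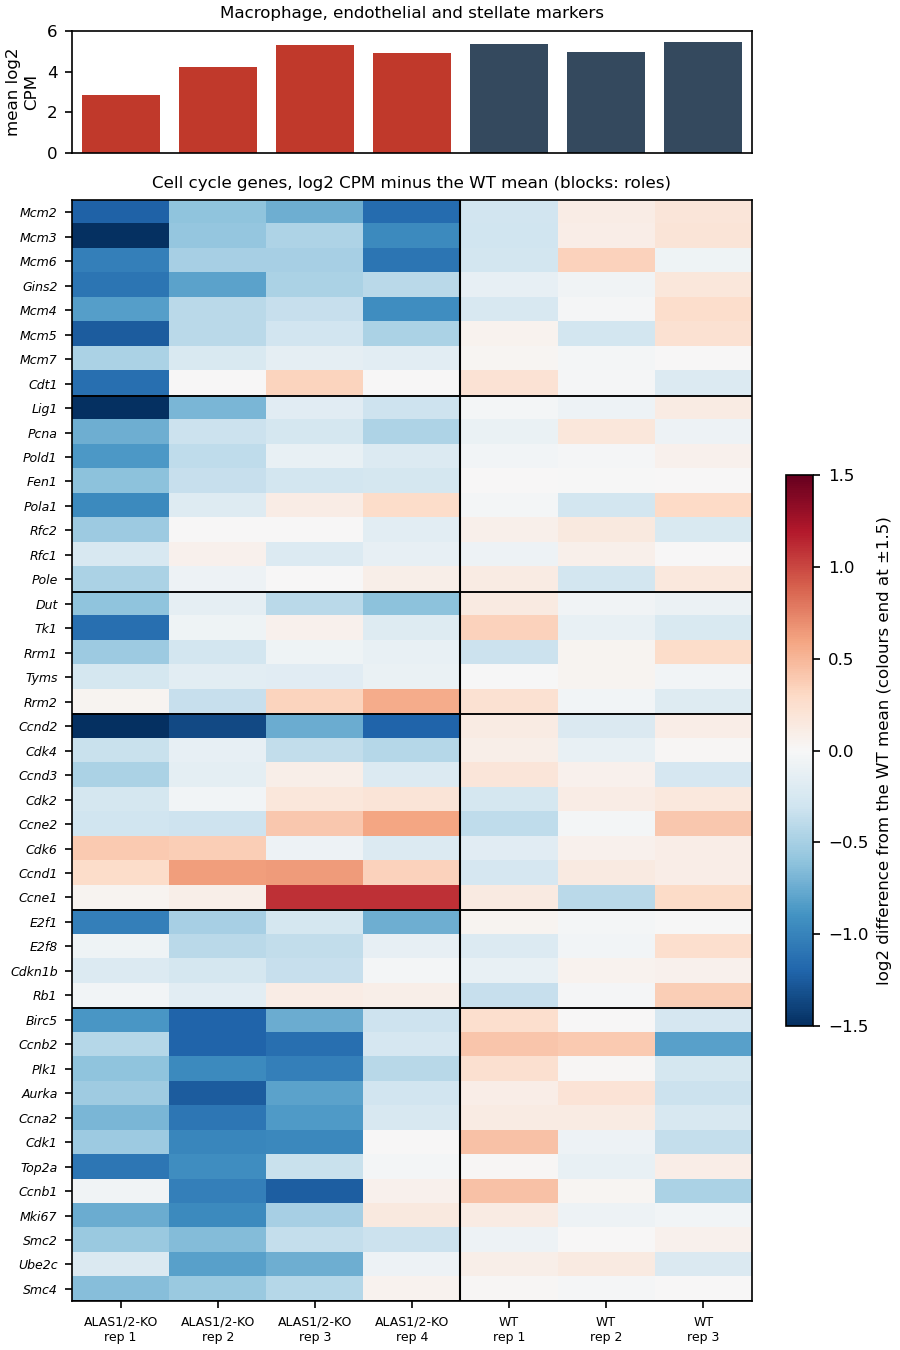
Log2 CPM minus the WT mean for each of the 45 genes (rows, in blocks by role) in each library (columns), with the mean log2 CPM of macrophage, endothelial and stellate markers as bars above. Replication genes are bluest in ALAS1/2-KO replicate 1, where the marker mean is 2.85, and mitotic genes are bluest in ALAS1/2-KO replicates 2 and 3, where it is 4.22 and 5.28, against 4.98 to 5.47 in WT.

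**Figure D5:**
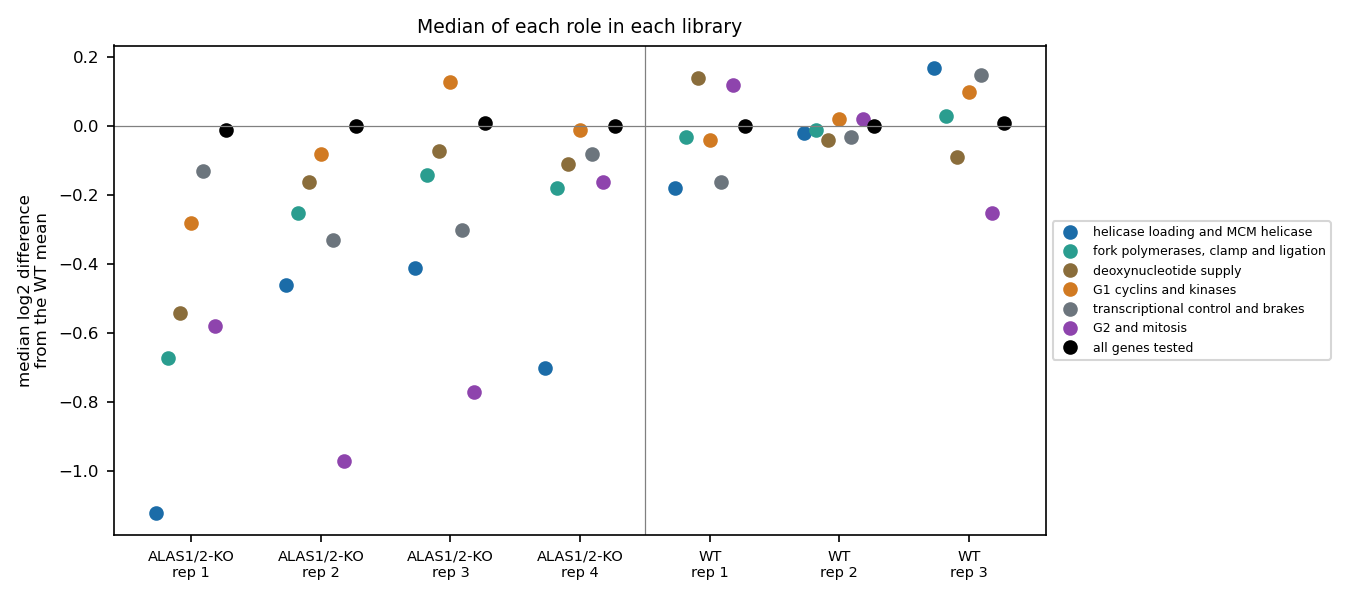
Median log2 difference from the WT mean (y axis) over the genes of each role in each library (x axis), with the median of all tested genes in black. The helicase median is at most -0.41 in each ALAS1/2-KO library and at least -0.18 in each WT library, while the G2 and mitosis median of ALAS1/2-KO replicate 4 (-0.16) lies above that of WT replicate 3 (-0.25).

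Other genes of the same processes, from 5 further lists, gave 5 that passed the test of 161 tested (3.11%, against 5.10% of all genes), so they were called no more often than other genes. Of 57 further mitotic genes, 2 fell (3.51%, against 2.19% of all genes) and 0 rose. A log2 fold change below 0 was seen in 51 of the 57 (89.5%, against 52.0%), and the median was -0.49. Mad2l1, a sensor of the spindle checkpoint, had 8.47, 5.51, 5.78 and 7.49 CPM in ALAS1/2-KO, against 13.5, 13.9 and 11.5 CPM in WT, and fell by 0.94 on the log2 scale (SE 0.17, limma adjusted p = 0.0256). Cdca8, borealin, which works with survivin in the chromosomal passenger complex, had 3.17, 3.63, 2.81 and 4.09 CPM in ALAS1/2-KO, against 7.52, 7.14 and 5.50 CPM in WT (log2 fold change -0.96, SE 0.19, limma adjusted p = 0.0307). In both genes the lowest WT library was replicate 3, and every ALAS1/2-KO library lay below it. Mad2l1 lost its call without ALAS1/2-KO replicate 3 or 4 or any 1 WT library (adjusted p up to 0.135), and Cdca8 without ALAS1/2-KO replicate 2, 3 or 4 or WT replicate 1 or 2 (adjusted p up to 0.159). At an unadjusted p under 0.05 there were 22 lower and 2 higher mitotic genes of 57 (38.6% and 3.51%, against 11.9% and 11.8% of all genes), and 21 lower with the marker covariate (36.8%, against 11.0%). Without ALAS1/2-KO replicates 1 and 2 the count was 15 (26.3%, against 12.8%), with a median of -0.30.

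Further factors of origins and forks gave no call in limma. Of 19 prereplication and origin factors, 4 had an unadjusted p under 0.05 in the lower direction (21.1%, against 11.9% of all genes) and 0 in the higher, 12 had a log2 fold change below 0 (63.2%, against 52.0%), and the median of -0.05 was near that of all genes. The most abundant, Mcm10, which helps to activate the helicase, had 39.4, 15.9, 13.0 and 22.2 CPM in ALAS1/2-KO, against 67.6, 49.5 and 32.6 CPM in WT (log2 fold change -1.21, SE 0.41, limma adjusted p = 0.135). Its highest ALAS1/2-KO value was in replicate 1, the reverse of the MCM subunits, and leaving that library out gave a log2 fold change of -1.52 (adjusted p = 0.0225, against 0.0135 to 0.330 over 18 alternatives). Of 31 further fork and S phase genes, 28 had a log2 fold change below 0 (90.3%, against 52.0%), and the median was -0.25. An unadjusted p under 0.05 was found in 7 of the 31 in the lower direction (22.6%, against 11.9%) and 0 in the higher. Without ALAS1/2-KO replicate 1 that count was 3 of 31 (9.68%, against 11.9% of all genes). Top1, the most abundant of them, which relaxes DNA ahead of forks, averaged 35.2 ± 6.40 CPM in ALAS1/2-KO and 31.5 ± 3.46 CPM in WT (SD, n = 4 and 3).

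Of 18 further genes of nucleotide supply, 1 fell (5.56%, against 2.19% of all genes) and 0 rose. Impdh1, an enzyme of guanine nucleotide synthesis, had 1.27, 1.69, 2.96 and 2.24 CPM in ALAS1/2-KO, against 5.48, 4.56 and 5.71 CPM in WT (log2 fold change -1.39, SE 0.29, limma adjusted p = 0.0344). It lost its call without ALAS1/2-KO replicate 2 or 4 or any 1 WT library (adjusted p up to 0.134). The list median of -0.06 was near that of all genes. Of 36 brakes and other regulators of the cycle, 1 rose and 1 fell (2.78% each, against 2.91% and 2.19% of all genes), with a median of -0.05. Ccng1, cyclin G1, a p53 target, had 40.8, 39.8, 32.6 and 30.1 CPM in ALAS1/2-KO, against 21, 20.7 and 18.9 CPM in WT (log2 fold change 0.82, SE 0.13, limma adjusted p = 0.0147). Btg1, an antiproliferative factor, had 30.9, 30.6, 28.2 and 29.7 CPM in ALAS1/2-KO, against 45.3, 53.8 and 51.7 CPM in WT (log2 fold change -0.75, SE 0.09, limma adjusted p = 0.00606). Both kept the groups well apart, and the 4 ALAS1/2-KO values of Btg1 lay within 3 CPM of each other. Both lost their calls without WT replicate 2, with adjusted p of 0.0540 for Btg1 and 0.0820 for Ccng1.

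Counting could affect some of these values. Among the 45 members, 20 share exon bases with another annotated gene and 9 share more than 10% of theirs, among them Fen1, Gins2, Ccnd1, Ube2c, Cdk4 and Ccna2 (12.5% with Exosc9). Without strand, reads from such a pair cannot be told apart.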

How the data were processed

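The table, called CPM by the authors, was deposited as log2 CPM with a small prior, equal to 0.0676 CPM. Per the submitters' processing notes, cutadapt, HISAT2 and the mouse build mm10 were used, and per the labels' protocols libraries were made from 1 µg of total RNA with the TruSeq RNA kit, version 2. The sources used here give neither tool versions nor the read counter or annotation. The deposited log2 values gave whole reads for 100.0% of values within 0.01 reads. The 12105 of 12151 genes that reached 1 CPM in 3 or more libraries entered a two-sided test in limma (3.58.1, R 4.3.3) with robust moderation and a variance trend, and with Benjamini-Hochberg adjustment over all genes tested. Fold changes include the prior. The procedure was tested on simulated data with capped spread and noise independent between genes, a simpler setting than these libraries. For single values an exact permutation test, two-sided, was run over libraries.

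Members and lists were chosen with earlier results of these data known, so no set test was run. Values per library are given for members that passed the test or whose groups did not overlap and, for each role, the member with most reads and that with the largest change; of other lists, those that passed, or else the most abundant gene. Positions and exon lengths came from GENCODE M21, promoters from RefSeq. The marker covariate and the fit without ALAS1/2-KO replicates 1 and 2 were chosen after seeing the data.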

Additional observations from a re-analysis of the deposited data

How the results depend on the processing

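The Mcm2 call and the counts depended on the settings, and the causes were not tested. Mcm2 was called in 5 of 18 alternatives, with limma adjusted p of 0.0127 to 0.205. The 1 member called was Ccnd1 with CPM rescaled to listed reads, Plk1 when scaled without abundant genes, and Ccnd2 with the marker covariate. Over all genes the count of 617 was 2735 with CPM rescaled to listed reads (92.6% higher, against 57.1% and 42.3% when scaled without the 20 most abundant and mitochondrial genes), 355 without trend and robust moderation together, 2001 with array weights, 72 with the replicate block, 1113 without ALAS1/2-KO replicates 1 and 2, and 56 to 802 when 1 library was left out. Members called were 0 with a minimum of 5 CPM, without trend and robust moderation together and with the replicate block, 11 with array weights, 3 without ALAS1/2-KO replicates 1 and 2, and 0 to 2 when 1 library was left out. For prereplication factors the count was 2 rescaled, 2 with array weights, 1 with the marker covariate and 0 to 1 leaving out 1 library, and for fork and S phase genes 2 with array weights. For nucleotide supply it was 0 with a minimum of 5 CPM, 7 rescaled, 3 with array weights, 0 with the replicate block and 0 to 1 leaving out 1 library. For mitosis it was 6 rescaled, 14 with array weights, 0 with the replicate block, 4 with the covariate, 4 without ALAS1/2-KO replicates 1 and 2, and 0 to 3 leaving out 1 library. For brakes it was 4 rescaled, 5 with array weights, 0 with the replicate block and 0 to 2 leaving out 1 library. All 5 lists together had 19, 26, 0 and 9 calls rescaled, with array weights, with the replicate block and with the covariate, and 0 to 7 leaving out 1 library.

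Signs of log2 fold changes turned only in members whose value above ran from -0.33 (Tk1) to 0.12 (Cdk6). Among these were Mcm7, Cdk4 and Tyms, whose groups did not overlap. Rescaled, the log2 fold changes that turned were 0.08 for Mcm7, 0.02 for Cdk4, 0.15 for Ccnd3, 0.08 for Rrm1, 0.16 for Tyms, 0.01 for Tk1, 0.14 for Pola1, 0.21 for Pole, 0.21 for Rfc1, 0.16 for Rfc2, 0.13 for Cdt1, 0.09 for E2f8, 0.33 for Rb1 and 0.12 for Cdkn1b, all but Rb1 below the median gene at 0.32. With array weights they were -0.03 for Cdk6, 0.16 for Pola1, 0.10 for Pole, 0.05 for Cdt1 and 0.09 for Rb1. With the covariate they were -0.10 for Cdk6, 0.11 for Tk1, 0.30 for Pola1, 0.12 for Pole, 0.33 for Cdt1 and 0.07 for Rb1. Without ALAS1/2-KO replicates 1 and 2 they were -0.14 for Cdk6, 0.20 for Pola1, 0.05 for Pole, 0.17 for Cdt1 and 0.10 for Rb1. Cdk2 was -0.05 scaled without abundant genes, -0.02 with voom and -0.05 with the replicate block, and Ccne2 was -0.07 with the replicate block. Leaving out 1 library gave -0.12 to 0.10 for Cdk2, -0.09 to 0.30 for Ccne2, -0.34 to 0.07 for Pola1, -0.26 to 0.01 for Pole, -0.37 to 0.11 for Cdt1 and -0.18 to 0.18 for Rb1. Deviations of same-numbered libraries had correlations of -0.03, 0.05 and 0.18, within the range of differently numbered ones (-0.33 to 0.36). These values cannot settle whether same-numbered libraries were handled together. The labels do not state a pairing, so the replicate block cannot be read as a paired test. Depth limited the E-type cyclins most, with 23 reads in the shallowest case.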
